A study of Mus musculus with 6 samples.

Results

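The 41 genes described here are imprinted mouse genes, given by symbol and matched to the gene names of the deposited tables. All 41 were found among the 46517 gene IDs of each table. Their RNA was measured by poly(A)-enriched, rRNA-depleted RNA-seq of the E14TG2a line, a wild-type mouse embryonic stem cell line from the blastocyst, at 3 stages of 1 neuronal differentiation with 2 libraries each, labelled as biological replicates. mESC are the undifferentiated cells, grown without feeders on gelatin with serum and LIF. NPC are the neuronal progenitors derived from them. The labels do not spell out NC, which was taken here to be the last stage named in the design text, glutamatergic neurons. All stages carry the wild-type genotype and come from the same line, and nothing in the labels says that cells of a stage were purified.

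Imprinted genes are expressed from the copy inherited from 1 parent. For most of them DNA methylation set in the egg or the sperm marks a control region nearby, and many lie in clusters that share such a region. Many of them act on growth: several genes expressed from the paternal copy promote it and several expressed from the maternal copy restrain it. Several are also known for strong expression in the developing brain. From textbook knowledge 16 members were grouped as expressed from the maternal copy and 23 as expressed from the paternal copy. The other 2, Grb10 and Gnas, were grouped as using either copy depending on tissue or transcript. Each gene kept its group at every stage, and whether a gene used both copies at a stage was not measured. The tables give 1 level per gene and do not separate the parental copies, so the parent of origin is background here and was not measured. Of the members, 34 code for proteins and 7 are long noncoding RNAs.

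Levels are given in TPM, a transcript abundance scaled to length and to the same sum in every library. Differences are log2 fold changes of TPM + 1 with their standard error (SE) from limma, a linear model fitted over 20232 genes with at least 1 TPM in at least 2 of the 6 libraries. A gene was called higher or lower at an adjusted p under 0.05. Of the members, 40 were tested, 2 of them (Phlda2 and Slc22a18) passing the filter through mESC alone, so a difference in those 2 was built into the filter. Ascl2, a transcription factor of the trophoblast lineage, was not tested and was listed at 1.49 and 0.836 TPM in mESC libraries, 0.242 and 0.207 TPM in NPC libraries and 0 and 0.276 TPM in NC libraries.

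The depth of the libraries lay between 1.57 and 2.27 Gb of aligned bases. The stage labels fitted their markers in part. The 10 progenitor markers summed to 543 and 584 TPM in mESC libraries and to 1674 and 1791 TPM in NPC libraries. In NC libraries they summed to 2817 and 1914 TPM, above both NPC sums. Most of the single markers went the other way. In NC against NPC 3 of the 10 had a positive and 7 a negative log2 fold change, with a median of -0.27. Of the 10, 2 (20.0%) were called higher and 2 (20.0%) lower, beside 15.2% and 10.1% of all tested genes. The 10 pluripotency markers summed to 6473 and 6314 TPM in mESC, to 102 and 115 TPM in NPC and in NC to 111 and 69.9 TPM. Most of the later sums came from Sox2, which is also among the progenitor markers. Sox2 was at 71.3 and 88.3 TPM in NPC libraries and 89.3 and 44.5 TPM in NC libraries. The 13 neuron markers summed to 269 and 329 TPM in mESC libraries, 805 and 1163 TPM in NPC libraries and 4308 and 4091 TPM in NC libraries. The 13 mesenchyme and muscle markers summed to 132 and 85.5 TPM in mESC libraries, 50.7 and 97.99 TPM in NPC libraries and 1031 and 1147 TPM in NC libraries, with 10 of 12 tested higher in NC than in NPC and the muscle factor Myog at 0 outside NC replicate 2. The 15 endoderm and trophoblast markers summed to 303 and 144 TPM in mESC libraries, 459 and 304 TPM in NPC libraries and 97.96 and 328 TPM in NC libraries, with Alb and Prl3d1 at 0 in all 6 libraries, and the 11 glia markers to 49.8 and 18.5 TPM in mESC libraries, 66.3 and 59.1 TPM in NPC libraries and 123 and 72.3 TPM in NC libraries. The part of these other cell types in any result below was not tested. In these bulk libraries fewer cells of a type and less RNA per cell cannot be told apart.

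As a group the imprinted genes took a larger share of the RNA at each stage. Their summed level was 2837 and 2604 TPM in mESC, 6542 and 6310.4 TPM in the NPC libraries and 13139 and 11596 TPM in the NC libraries. These sums were 0.284% and 0.260% of all TPM in mESC libraries, 0.654% and 0.631% in NPC libraries and 1.31% and 1.16% in NC. The libraries of the 3 stages did not overlap. Mean levels of at least 100 TPM were reached by 8 members in mESC, 14 in NPC and 14 in NC. In mESC the leading members were the long noncoding RNAs Rian (502 TPM) and Meg3 (329.7 TPM). In NPC they were the retrotransposon-derived gene Peg10 (814 TPM) and Gnas (772 TPM). In NC 4 members averaged over 1000 TPM: Nnat (2588 TPM), Meg3 (1876 TPM), Rian (1263 TPM) and H19 (1218 TPM).

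**Figure D1:**
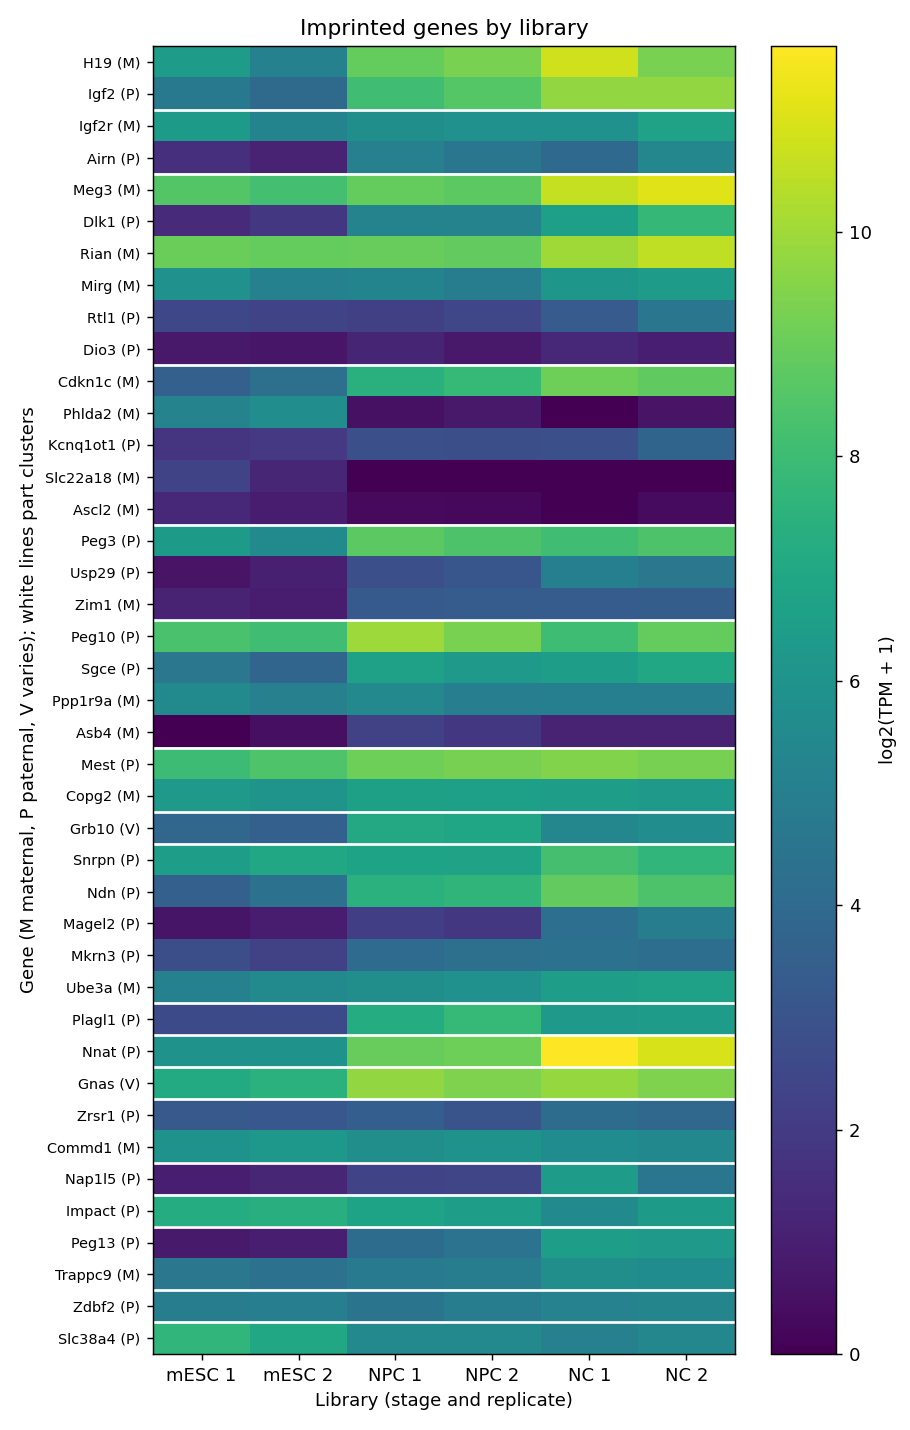
Colour gives log2(TPM + 1) of the 41 imprinted genes (rows, by cluster; M, P and V mark genes known to use the maternal copy, the paternal copy or either) in the 6 libraries (columns). Nnat in NC replicate 1, at 3226 TPM, is the brightest cell, and Slc22a18 is at 0 in all NPC and NC libraries.

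In NPC against mESC, 20 of the 40 tested members (50.0%) were higher and 3 (7.5%) were lower, beside 26.0% of all tested genes called higher and 14.0% called lower (40.0% in either direction). Phlda2 and Slc22a18 are 2 of the 3 lower members. The members' median log2 fold change was 1.10, beside 0.18 over all tested genes. In NC against NPC, 16 members (40.0%) were higher and 3 lower, beside 15.2% and 10.1% of all tested genes (25.3% in either direction), with a median of 0.44 beside 0.11. Over the whole course, NC against mESC, 29 members (72.5%) were higher and 5 (12.5%) lower, beside 37.8% and 22.1% of all tested genes (59.9% in either direction), with a median of 1.45 beside 0.31. The comparisons share libraries and are not independent of each other. Under median-of-ratios scaling the median of all tested genes moved to -0.01 in NPC against mESC, 0.04 in NC against NPC and 0.05 in NC against mESC, and the share of called genes that were higher moved from 65.0% to 52.7%, from 60.1% to 54.6% and from 63.2% to 52.4%. The members called higher and lower were then 20 and 4, 14 and 3, and 26 and 5.

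Many calls at the step from NPC to NC were lost when 1 library was left out. Without NPC replicate 1, 1 of its 16 higher members (Meg3) and 0 of its 3 lower members were still called, while 309 of all tested genes were. Without NPC replicate 2 the counts of members still called were 6 and 1, without NC replicate 1 they were 9 and 1, and without NC replicate 2 they were 10 and 2. Without either mESC library they were 13 and 2. No called member value changed its sign in any of these fits. Each fit has 1 library fewer to estimate the spread from, so a lost call need not rest on the library left out. The second-step log2 fold changes of Dlk1 (1.97), Nap1l5 (3.08), Rtl1 (1.61) and Peg10 (-1.17) were unchanged without either mESC library, though these calls were lost.

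At both steps 8 members were called higher: Igf2, Dlk1, Cdkn1c, Usp29, Ndn, Magel2, Nnat and Peg13. A further 9 were higher in NPC than in mESC with no call at the second step, and 8 were called higher at the second step only. Grb10, Plagl1 and Peg10 were higher in NPC than in mESC and lower in NC than in NPC. The 5 members called in no comparison were Igf2r, Dio3, Ppp1r9a, Copg2 and Zdbf2.

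**Figure D2:**
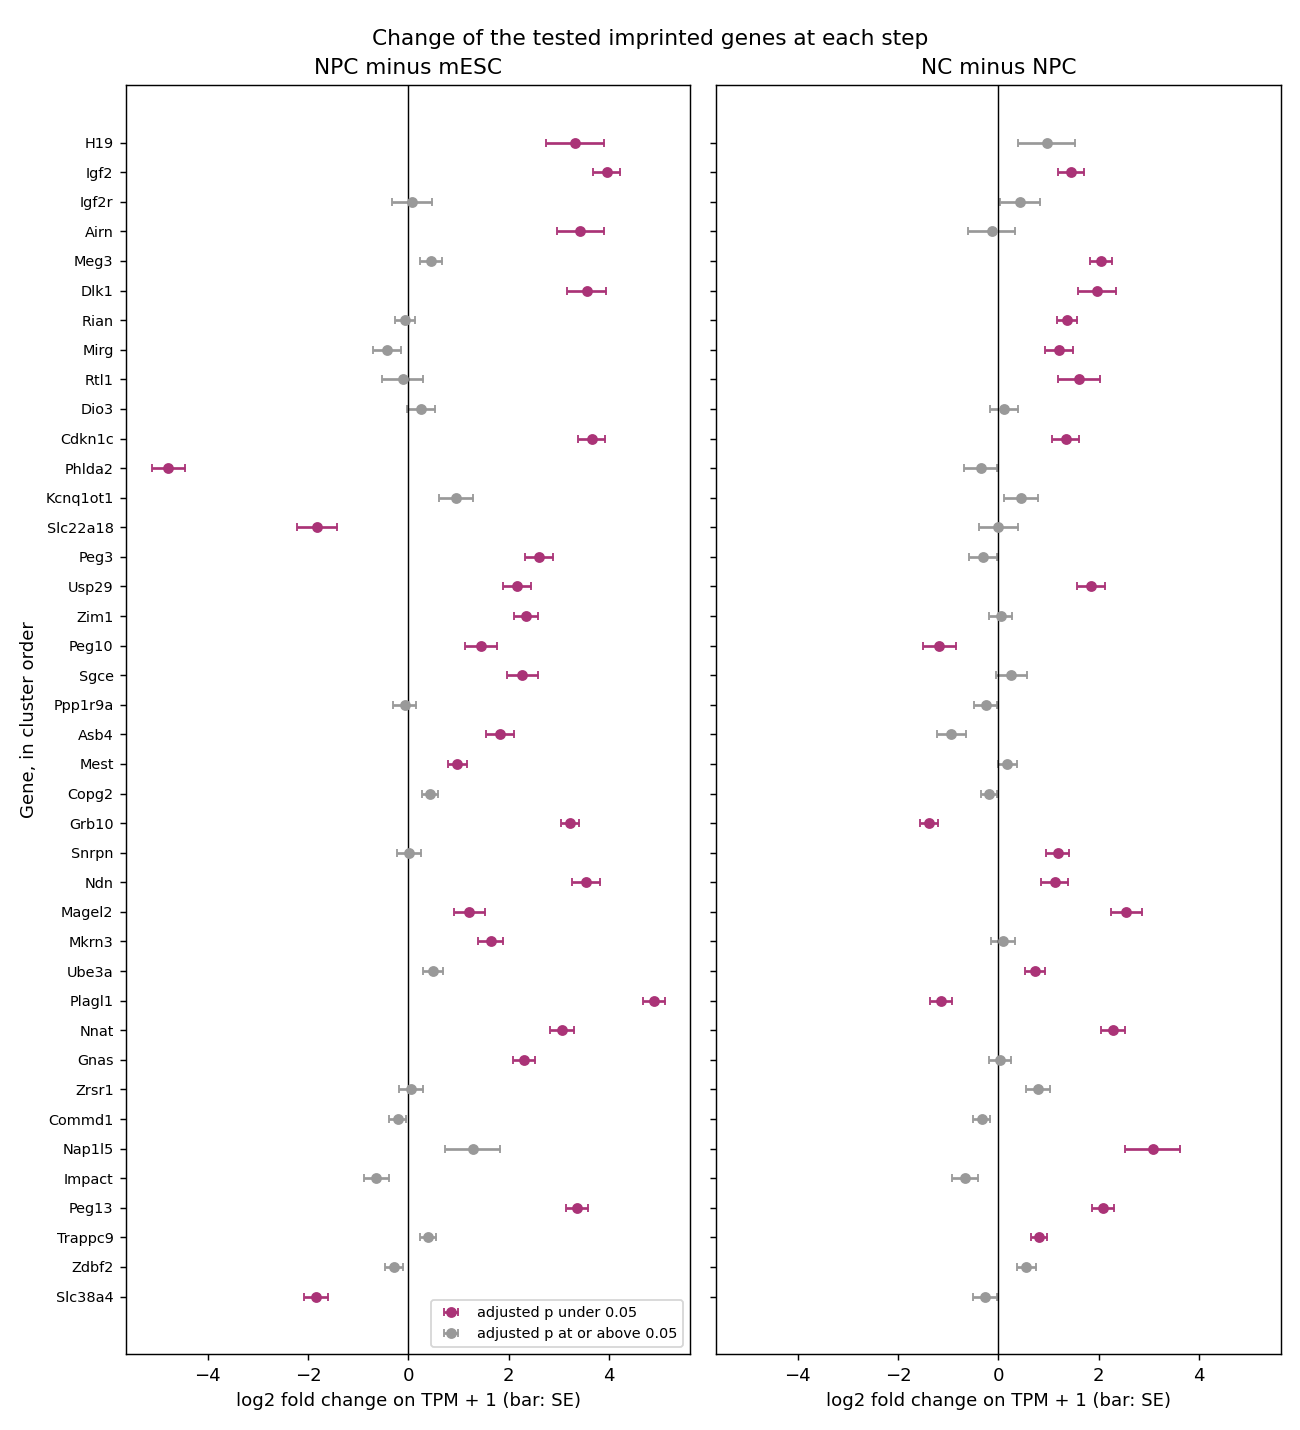
Points give the log2 fold change on TPM + 1 (horizontal axis) and bars the SE for the 40 tested imprinted genes in NPC minus mESC (left) and NC minus NPC (right). Coloured points have an adjusted p under 0.05, and Plagl1 (4.90) and Phlda2 (-4.78) are the outermost points of the left panel.

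Igf2, the insulin-like growth factor that promotes fetal growth, and H19, the long noncoding RNA that shares its enhancers, lie next to each other on chromosome 7 of mm10. Igf2 (ENSMUSG00000048583.15, chromosome 7, 142650766 to 142666816, minus strand) was listed at 25.1 and 15.4 TPM in mESC libraries, 267 and 385 TPM in NPC libraries and 879 and 871 TPM in NC libraries. The levels of the 3 stages did not overlap, and the NC libraries were the highest. Igf2 was higher in NPC than in mESC (log2 fold change 3.96 ± 0.26 SE, adjusted p = 0.00013 in limma) and higher in NC than in NPC (log2 fold change 1.45 ± 0.26 SE, adjusted p = 0.0117 in limma). H19 (ENSMUSG00000000031.14, chromosome 7, 142575529 to 142578143, minus strand) was listed at 84.9 and 33.6 TPM in mESC libraries, 473 and 633 TPM in NPC libraries and 1799 and 637 TPM in NC libraries. Its NPC and NC libraries were all above both mESC libraries, and the NC libraries differed from each other more than the NPC libraries did. H19 was higher in NPC than in mESC (log2 fold change 3.33 ± 0.57 SE, adjusted p = 0.00483 in limma) and in NC than in mESC (log2 fold change 4.30 ± 0.57 SE, adjusted p = 0.00102 in limma), while NC against NPC was not called (log2 fold change 0.97 ± 0.57 SE, adjusted p = 0.262 in limma). Without mESC replicate 2 the NPC against mESC difference of H19 was not called (limma adjusted p = 0.0623), and without NPC replicate 1, NC replicate 1 or NC replicate 2 the second step of Igf2 was not called (limma adjusted p = 0.101, 0.0634 and 0.0694). Both genes are also known from mesenchyme, whose markers summed to 1031 and 1147 TPM in NC libraries, against 50.7 and 97.99 TPM in NPC libraries.

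Both genes carry a microRNA hairpin, and the mature forms are shown because the host transcripts are among the members with the strongest change over the course. The sequences are from RefSeq on GRCm38.p6, written 5′ to 3′, with the seed (bases 2 to 8) in capitals. The libraries measured gene-level RNA and not the mature microRNAs.
miR-675-5p (in H19): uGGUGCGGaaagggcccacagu
miR-675-3p (in H19): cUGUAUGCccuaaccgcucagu
miR-483-3p (in Igf2): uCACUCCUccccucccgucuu
The hairpin row of Mir675 stayed at or below 0.0264 TPM in every library. The row of Mir483 was at 0 in both mESC libraries, at 0.688 and 3.38 TPM in NPC and at 5.06 and 2.62 TPM in NC.

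Igf2r, the receptor that clears IGF2, and Airn, the noncoding RNA on its opposite strand that represses it in cis, overlap on chromosome 17 without sharing exon bases. Airn (ENSMUSG00000078247.3, chromosome 17, 12741311 to 12860122, plus strand) was listed at 2.05 and 1.24 TPM in mESC libraries, 32.4 and 22.7 TPM in NPC libraries and 14.8 and 40.8 TPM in NC libraries. All 4 differentiated libraries lay above both mESC libraries, and NPC and NC overlapped. Airn was higher in NPC than in mESC (log2 fold change 3.43 ± 0.47 SE, adjusted p = 0.00193 in limma) and NC against NPC was not called (log2 fold change -0.13 ± 0.47 SE, adjusted p = 0.868 in limma). Igf2r was listed at 79.99 and 36.8 TPM in mESC libraries, 55.7 and 59.5 TPM in NPC libraries and 59.1 and 103 TPM in NC libraries. The stages overlapped, and no comparison called it (NPC against mESC, log2 fold change 0.08 ± 0.40 SE, adjusted p = 0.896 in limma; NC against mESC, log2 fold change 0.52 ± 0.40 SE, adjusted p = 0.295 in limma).

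Grb10, an adaptor that dampens insulin and IGF receptor signalling, was highest in NPC. Its level was 13.4 and 11 TPM in mESC libraries, 131 and 114 TPM in NPC libraries and 41.7 and 51.1 TPM in NC libraries. No 2 stages overlapped. It was higher in NPC than in mESC (log2 fold change 3.23 ± 0.18 SE, adjusted p = 7.17e-05 in limma), lower in NC than in NPC (log2 fold change -1.39 ± 0.18 SE, adjusted p = 0.00503 in limma) and still higher in NC than in mESC (log2 fold change 1.85 ± 0.18 SE, adjusted p = 0.000286 in limma). Without NPC replicate 1 the second step of Grb10 had a limma adjusted p of 0.0696.

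Plagl1, a zinc finger transcription factor that restrains proliferation, had the largest log2 fold change of all members in NPC against mESC. It was listed at 5.06 and 5.08 TPM in mESC libraries, 146 and 222 TPM in NPC libraries and 75.1 and 86.7 TPM in NC libraries. The mESC libraries were the lowest and the NPC libraries the highest, with NC between them and no overlap. Plagl1 (ENSMUSG00000019817.17, chromosome 10, 13060504 to 13131694, plus strand) was higher in NPC than in mESC (log2 fold change 4.90 ± 0.22 SE, adjusted p = 3.72e-05 in limma) and lower in NC than in NPC (log2 fold change -1.15 ± 0.22 SE, adjusted p = 0.0139 in limma). The second step was lost on leaving out either NPC or either NC library (limma adjusted p = 0.0527 to 0.0932).

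**Figure D3:**
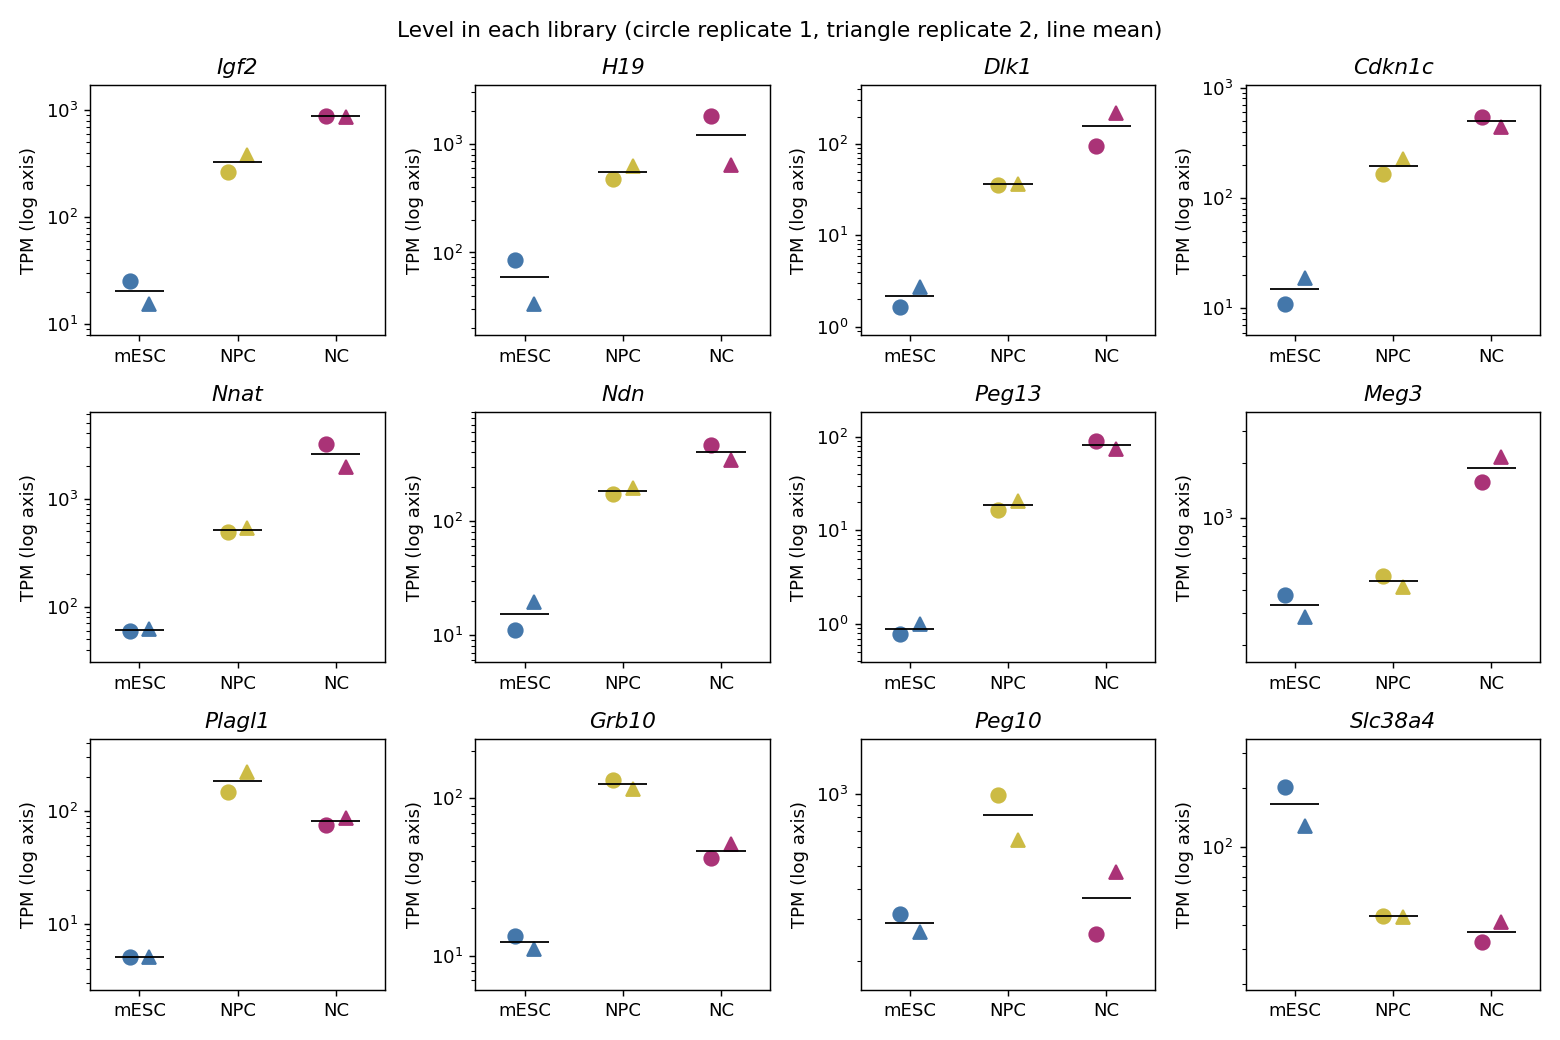
TPM on a log axis in each library (circles replicate 1, triangles replicate 2, lines the mean of 2) by stage for 12 imprinted genes. Igf2, Dlk1, Cdkn1c, Nnat, Ndn and Peg13 stand higher at each stage, Plagl1 and Grb10 are highest in NPC, and Slc38a4 is highest in mESC.

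The Kcnq1 cluster on chromosome 7 held members that moved in opposite directions. Cdkn1c (ENSMUSG00000037664.11, chromosome 7, 143458350 to 143461050, minus strand) encodes p57, a cyclin-dependent kinase inhibitor that stops the cell cycle in differentiating cells. Its level was 11.01 and 18.7 TPM in mESC libraries, 166 and 225 TPM in NPC libraries and 546 and 445 TPM in NC libraries. The stages did not overlap and NC was the highest. Cdkn1c was higher in NPC than in mESC (log2 fold change 3.66 ± 0.27 SE, adjusted p = 0.00019 in limma) and in NC than in NPC (log2 fold change 1.35 ± 0.27 SE, adjusted p = 0.0158 in limma). Phlda2, a pleckstrin-domain protein that restrains placental growth, was listed at 35.7 and 50.7 TPM in mESC libraries, 0.439 and 0.736 TPM in NPC libraries and 0 and 0.536 TPM in NC libraries. Only the mESC libraries were above 1 TPM. Phlda2 was lower in NPC than in mESC (log2 fold change -4.78 ± 0.33 SE, adjusted p = 0.000143 in limma). Slc22a18, a transporter, was at 4.31 and 1.35 TPM in mESC and listed at 0 in all 4 other libraries. It was called lower in NPC than in mESC (limma adjusted p = 0.0115), but not without NPC replicate 1 or 2 (limma adjusted p = 0.0636 and 0.0693). Kcnq1ot1, the noncoding RNA that silences the cluster on the paternal chromosome, was listed at 2.505 and 2.84 TPM in mESC libraries, 6.26 and 5.96 TPM in NPC libraries and 6.11 and 12.3 TPM in NC libraries. Both later stages lay above mESC. The call was made in NC against mESC (log2 fold change 1.41 ± 0.34 SE, adjusted p = 0.0112 in limma), and was lost without mESC replicate 1 or 2 (limma adjusted p = 0.0783 and 0.0675). The second step of Cdkn1c was lost on leaving out either NPC or either NC library (limma adjusted p = 0.0632 to 0.131).

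In the Dlk1-Dio3 cluster on chromosome 12 the maternally expressed noncoding RNAs Meg3, Rian and Mirg were already present in mESC, were not called at the first step and were higher in NC. Meg3, a nuclear noncoding RNA known for restraining growth, was listed at 376 and 283 TPM in mESC libraries, 480.4 and 417 TPM in NPC libraries and 1586 and 2166 TPM in NC libraries. Both NC libraries lay above all others. Meg3 (ENSMUSG00000021268.16, chromosome 12, 109541001 to 109571726, plus strand) was higher in NC than in NPC (log2 fold change 2.05 ± 0.22 SE, adjusted p = 0.00338 in limma), with log2 fold change 0.45 ± 0.22 SE, adjusted p = 0.141 in limma in NPC against mESC. Rian, a host of small nucleolar RNAs, was listed at 529 and 474 TPM in mESC libraries, 493 and 466 TPM in NPC libraries and 1031 and 1494 TPM in NC libraries. The mESC and NPC libraries overlapped and both NC libraries were higher. Rian was higher in NC than in NPC (log2 fold change 1.37 ± 0.20 SE, adjusted p = 0.00649 in limma). Mirg, a host of microRNAs, was at 59.5 and 33.9 TPM in mESC libraries, 37.7 and 29.5 TPM in NPC libraries and 70.5 and 87.2 TPM in NC libraries. Its NC libraries were the highest, and mESC and NPC overlapped. Mirg was higher in NC than in NPC (log2 fold change 1.21 ± 0.28 SE, adjusted p = 0.0258 in limma) and, close to the threshold, in NC than in mESC (log2 fold change 0.79 ± 0.28 SE, adjusted p = 0.0496 in limma). Without NPC replicate 1 the second step had a limma adjusted p of 0.07 for Rian and 0.107 for Mirg. Rian was also lost without NPC replicate 2 (0.0616), and Mirg without any 1 NPC or NC library (up to 0.159). The NC against mESC call of Mirg was lost without any 1 library other than mESC replicate 1 (up to 0.225).

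The protein-coding members of the cluster, expressed from the paternal copy, differed among themselves. Dlk1, a transmembrane Notch-like protein that keeps progenitors undifferentiated, was listed at 1.64 and 2.73 TPM in mESC libraries, 35.7 and 36.4 TPM in NPC libraries and 95.8 and 217 TPM in NC libraries. The stages did not overlap, and the NC libraries were the farthest apart. Dlk1 (ENSMUSG00000040856.16, chromosome 12, 109452823 to 109463336, plus strand) was higher in NPC than in mESC (log2 fold change 3.56 ± 0.38 SE, adjusted p = 0.000766 in limma) and in NC than in NPC (log2 fold change 1.97 ± 0.38 SE, adjusted p = 0.0143 in limma). Rtl1, a retrotransposon-derived gene known from placenta and muscle, was listed at 4.72 and 4.25 TPM in mESC libraries, 3.66 and 4.55 TPM in NPC libraries and 9.096 and 22.8 TPM in NC libraries. Rtl1 was higher in NC than in NPC (log2 fold change 1.61 ± 0.41 SE, adjusted p = 0.0331 in limma), with NC replicate 2 the highest. Without NC replicate 2 the log2 fold change of Rtl1 was 0.99 (limma adjusted p = 0.072), and without NPC replicate 1 the adjusted p was 0.189 for Rtl1 and 0.107 for Dlk1. Both second-step calls were also lost without NPC replicate 2 or either mESC library. Dio3, the deiodinase that inactivates thyroid hormone, stayed between 0.628 and 1.42 TPM and was not called (NC against mESC, log2 fold change 0.37 ± 0.27 SE, adjusted p = 0.284 in limma).

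**Figure D4:**
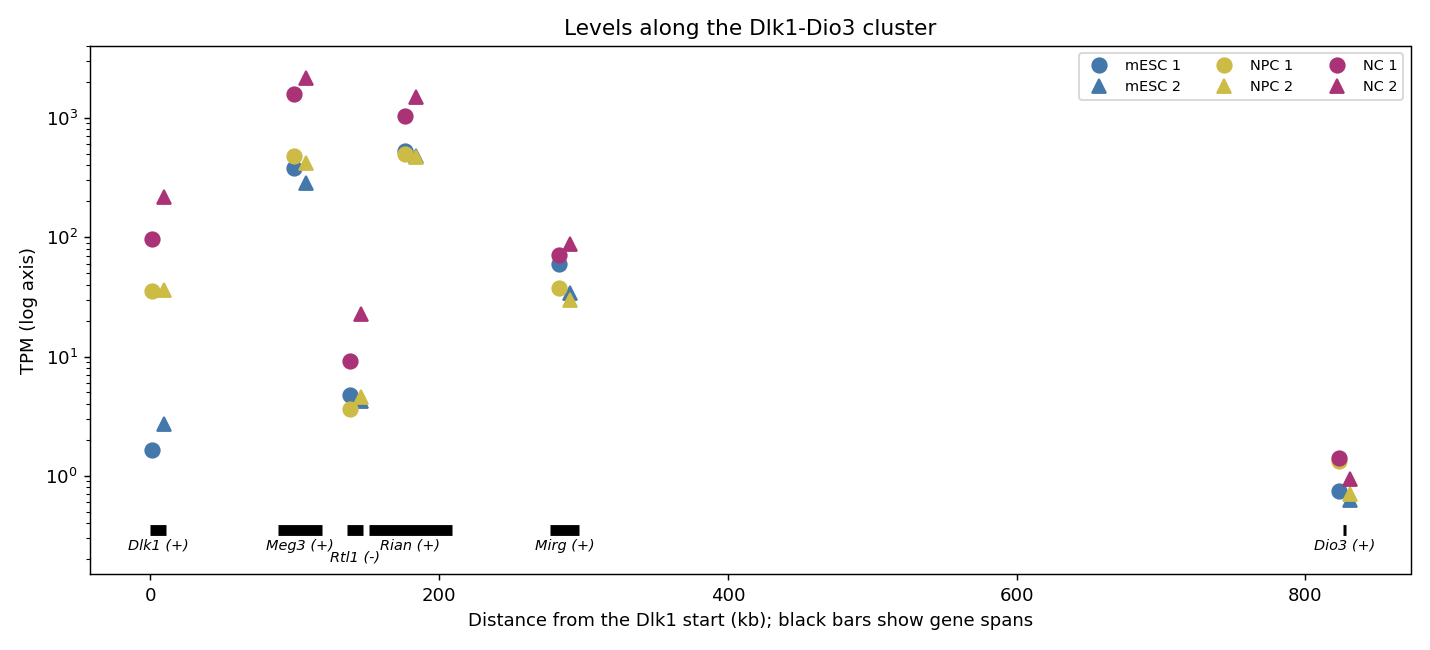
TPM on a log axis of 6 genes of the Dlk1-Dio3 cluster in the 6 libraries, placed by distance in kb from the Dlk1 start (black bars, gene spans with strand). The NC points stand above the NPC and mESC points for Dlk1, Meg3, Rtl1, Rian and Mirg, and Dio3 stays near 1 TPM.

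The promoter of Meg3 is shown because the noncoding RNAs of the cluster run in the same direction downstream of it and were all called higher at the second step. The 250 bases before the RefSeq start (GRCm38.p6, chr12:109540746-109540995, plus strand) hold 1 match, in capitals, to TGCCGC on either strand, the hexamer recognised by ZFP57 when methylated. The printed window was chosen for holding a match.
Meg3: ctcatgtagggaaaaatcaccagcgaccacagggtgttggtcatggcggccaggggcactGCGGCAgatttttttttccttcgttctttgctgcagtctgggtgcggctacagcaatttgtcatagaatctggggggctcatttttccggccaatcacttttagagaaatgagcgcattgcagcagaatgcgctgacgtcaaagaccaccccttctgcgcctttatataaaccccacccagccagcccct

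RefSeq places 14 microRNA hairpins within Mirg, 3 within Rian and 2 within Meg3, and 6 on the opposite strand of Rtl1. The mature forms below stand for these hosts, with seeds in capitals. Among all the mature microRNAs of the hosts, 1 seed, GGUUGCC, was shared, by miR-453 and miR-496a-5p.
miR-770-5p (in Meg3): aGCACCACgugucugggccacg
miR-127-3p (opposite Rtl1): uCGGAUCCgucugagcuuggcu
miR-136-5p (opposite Rtl1): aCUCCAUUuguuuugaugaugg
miR-370-3p (in Rian): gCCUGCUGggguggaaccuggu
miR-134-5p (in Mirg): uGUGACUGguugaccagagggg
miR-453 (in Mirg): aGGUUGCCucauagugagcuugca
miR-496a-5p (in Mirg): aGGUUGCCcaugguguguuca
miR-410-3p (in Mirg): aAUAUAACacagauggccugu
Between the Dlk1 start and the Dio3 end the tables list 61 rows with microRNA names, of which 11 were at 0 in every library. Their median was 0.490 and 0.169 TPM in mESC libraries, 0.203 and 0.106 TPM in NPC libraries and 1.11 and 1.74 TPM in NC libraries. Both NC medians lay above all others. The rows of Mir431, Mir433, Mir127, Mir434 and Mir432, which lie opposite Rtl1, were at 0 in all 6 libraries. Mir3072, within Mirg, was listed at 7.81 and 3.56 TPM in mESC libraries, 6.96 and 6.41 TPM in NPC libraries and 27.3 and 19.97 TPM in NC libraries. These rows are short stretches inside longer transcripts, and no test of them was made. MicroRNA genes under other names, such as Gm23912, were not counted.

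Peg3 and Usp29 on chromosome 7 start next to each other and run in opposite directions. Peg3, a zinc finger protein expressed in brain and placenta, was listed at 80.2 and 45.5 TPM in mESC libraries, 417 and 337 TPM in NPC libraries and 272 and 337 TPM in NC libraries. All NPC and NC libraries lay above both mESC libraries, and NPC and NC overlapped. Peg3 (ENSMUSG00000002265.14, chromosome 7, 6703892 to 6730421, minus strand) was higher in NPC than in mESC (log2 fold change 2.61 ± 0.28 SE, adjusted p = 0.000724 in limma) and not called in NC against NPC (log2 fold change -0.30 ± 0.28 SE, adjusted p = 0.464 in limma). Usp29, named as a ubiquitin protease, was at 0.539 and 1.04 TPM in mESC libraries, 6.204 and 7.81 TPM in NPC libraries and 32.1 and 23.96 TPM in NC libraries. The stages did not overlap. Usp29 was higher in NPC than in mESC (log2 fold change 2.17 ± 0.28 SE, adjusted p = 0.00158 in limma) and higher in NC than in NPC (log2 fold change 1.85 ± 0.28 SE, adjusted p = 0.00708 in limma). Without NPC replicate 1 the second step of Usp29 had a limma adjusted p of 0.079. Zim1, a maternally expressed zinc finger gene of the same cluster, was at 1.17 and 0.873 TPM in mESC libraries, 8.93 and 9.63 TPM in NPC libraries and 9.48 and 9.74 TPM in NC libraries. It was higher in NPC than in mESC (log2 fold change 2.35 ± 0.23 SE, adjusted p = 0.000567 in limma) and its NC libraries lay close to its NPC libraries (log2 fold change 0.05 ± 0.23 SE, adjusted p = 0.91 in limma).

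The stretch between the Peg3 and Usp29 starts is shown because both genes rose at the first step and their RefSeq starts lie beside each other. Which starts the RNA came from was not measured. The stretch spans 163 bases (RefSeq, GRCm38.p6, chr7:6730420-6730582, plus strand) and holds 2 copies of CCAAT, the box bound by NF-Y, in capitals.
Peg3-Usp29: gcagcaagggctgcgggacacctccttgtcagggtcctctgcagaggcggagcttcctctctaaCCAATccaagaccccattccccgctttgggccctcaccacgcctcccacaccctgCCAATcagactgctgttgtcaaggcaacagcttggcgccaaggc
CCAAT, searched on either strand, was in windows of 15 of the 33 matched members and of 41.1% of the 27025 genes with a RefSeq promoter window of 300 bases. By window it was in 18 of the 52 of the members and in 37.4% of all 32851.

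Peg10 and Sgce on chromosome 6 also share a promoter region. Peg10, a retrotransposon-derived gene needed for the placenta, was highest in NPC, at 314 and 266 TPM in mESC libraries, 987 and 640.2 TPM in NPC libraries and 261 and 474 TPM in NC libraries. The NPC libraries lay above all others, and mESC and NC overlapped. Peg10 was higher in NPC than in mESC (log2 fold change 1.46 ± 0.32 SE, adjusted p = 0.0128 in limma) and lower in NC than in NPC (log2 fold change -1.17 ± 0.32 SE, adjusted p = 0.0411 in limma). Both calls of Peg10 were lost in fits with 1 library left out. The first was lost without mESC replicate 1, mESC replicate 2 or NPC replicate 1 (log2 fold change 1.57, 1.34 and 1.14). The second was lost without any 1 library but NC replicate 2. Its log2 fold change was then -1.17 without either mESC library, -0.86 without NPC replicate 1, -1.49 without NPC replicate 2 and -0.75 without NC replicate 1. Sgce, a sarcoglycan of the cell membrane, was at 23.5 and 12.9 TPM in mESC libraries, 100.2 and 78.2 TPM in NPC libraries and 89.4 and 125 TPM in NC libraries. Sgce was higher in NPC than in mESC (log2 fold change 2.28 ± 0.31 SE, adjusted p = 0.00188 in limma) and not called in NC against NPC (log2 fold change 0.26 ± 0.31 SE, adjusted p = 0.584 in limma). Asb4, a substrate adaptor of ubiquitin ligases, was at 0 and 0.3903 TPM in mESC libraries, 3.798 and 2.66 TPM in NPC libraries and 1.23 and 1.16 TPM in NC libraries. Its NPC libraries were the highest. It was called in NPC against mESC (log2 fold change 1.83 ± 0.29 SE, adjusted p = 0.00325 in limma) and in NC against mESC (log2 fold change 0.89 ± 0.29 SE, adjusted p = 0.0325 in limma), the second call being lost without mESC replicate 1, NC replicate 1 or NC replicate 2 (limma adjusted p = 0.114, 0.0795 and 0.0747). Ppp1r9a, a neuronal actin-binding protein, lay between 30.4 and 44.8 TPM in all libraries and was not called.

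Mest, a hydrolase-like protein known from embryonic mesoderm, overlaps the end of Copg2, a coat protein subunit, on the other strand. Mest was listed at 249.7 and 345 TPM in mESC libraries, 546 and 609 TPM in NPC libraries and 702 and 606 TPM in NC libraries. Both later stages lay above mESC and overlapped each other. Mest was higher in NPC than in mESC (log2 fold change 0.97 ± 0.19 SE, adjusted p = 0.00781 in limma), and not without NPC replicate 2 (limma adjusted p = 0.0762). Copg2 lay between 65.2 and 96.5 TPM and was not called. The pair shares 912 exon bases, 23.1% of those of Mest, and no strand setting is stated for the quantification, so reads there may count for either gene. Mest holds miR-335-5p and, in the 250 bases before its RefSeq start (GRCm38.p6, chr6:30737800-30738049, plus strand), 2 matches to TGCCGC on either strand. Both are shown as the host and promoter of a gene already among the highest in mESC. The printed window was chosen for holding a match to TGCCGC.
miR-335-5p (in Mest): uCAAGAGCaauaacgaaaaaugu
Mest: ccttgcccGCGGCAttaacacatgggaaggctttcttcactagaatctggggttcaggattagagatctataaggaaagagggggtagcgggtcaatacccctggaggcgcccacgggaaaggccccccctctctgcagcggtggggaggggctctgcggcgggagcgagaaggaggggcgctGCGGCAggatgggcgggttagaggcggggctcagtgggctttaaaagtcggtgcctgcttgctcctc

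Of the chromosome 7 cluster around Snrpn, Ndn and Magel2 were higher at both steps, Mkrn3 at the first, and Snrpn and Ube3a at the second. Ndn, a MAGE protein that promotes exit from the cell cycle in neurons, was listed at 11.1 and 19.4 TPM in mESC libraries, 172 and 194 TPM in NPC libraries and 467 and 341 TPM in NC libraries. No stages overlapped. Ndn (ENSMUSG00000033585.4, chromosome 7, 62348277 to 62349928, plus strand) was higher in NPC than in mESC (log2 fold change 3.55 ± 0.28 SE, adjusted p = 0.000223 in limma) and in NC than in NPC (log2 fold change 1.12 ± 0.28 SE, adjusted p = 0.0295 in limma). Magel2, a MAGE protein of endosomal sorting, was at 0.593 and 0.922 TPM in mESC libraries, 3.48 and 2.71 TPM in NPC libraries and 18.2 and 28.98 TPM in NC libraries. NC was the highest stage, with no overlap. Magel2 was higher in NPC than in mESC (log2 fold change 1.22 ± 0.31 SE, adjusted p = 0.0206 in limma) and in NC than in NPC (log2 fold change 2.55 ± 0.31 SE, adjusted p = 0.00418 in limma). Mkrn3, a ubiquitin ligase that restrains puberty onset, was at 6.001 and 3.88 TPM in mESC libraries, 16.02 and 18.6 TPM in NPC libraries and 19.6 and 17.5 TPM in NC libraries. Mkrn3 was higher in NPC than in mESC (log2 fold change 1.64 ± 0.25 SE, adjusted p = 0.00281 in limma), with NPC and NC overlapping.

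Snrpn, a spliceosomal protein of brain, was listed at 88.4 and 127 TPM in mESC libraries, 108 and 105 TPM in NPC libraries and 293 and 203 TPM in NC libraries. The mESC and NPC libraries overlapped and NC was higher (log2 fold change 1.18 ± 0.24 SE, adjusted p = 0.0153 in limma in NC against NPC). Snrpn shares 27.3% of its exon bases with Gm38393 and 216 bases with Snurf on the same strand, so its level is uncertain. Ube3a, the ubiquitin ligase lost in Angelman syndrome, was at 33.3 and 47.3 TPM in mESC libraries, 53.6 and 59.1 TPM in NPC libraries and 88.8 and 99.5 TPM in NC libraries. It was higher in NC than in NPC (log2 fold change 0.73 ± 0.19 SE, adjusted p = 0.0374 in limma) and in NC than in mESC (log2 fold change 1.22 ± 0.19 SE, adjusted p = 0.00212 in limma), and 8.74% of its exon bases lie opposite Snhg14. The NC against NPC calls of Snrpn, Ndn, Magel2 and Ube3a were each lost without NPC replicate 1, with limma adjusted p of 0.109, 0.18, 0.0518 and 0.218. Those of Ndn and Ube3a were also lost without NPC replicate 2, NC replicate 1 or NC replicate 2 (limma adjusted p = 0.0689 to 0.137 for Ndn and 0.0872 to 0.154 for Ube3a), and that of Snrpn without NPC replicate 2 or NC replicate 1 (0.102 and 0.067). The first-step call of Magel2 was lost without any 1 mESC or NPC library (limma adjusted p = 0.0767 to 0.126).

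The retrogene and single-gene clusters include the highest member of NC. Nnat, neuronatin, a small membrane protein of neural tissue, was listed at 59.5 and 61.9 TPM in mESC libraries, 495 and 534 TPM in NPC libraries and 3226 and 1949.7 TPM in NC libraries. The stages did not overlap. Nnat (ENSMUSG00000067786.15, chromosome 2, 157560078 to 157562522, plus strand) was higher in NPC than in mESC (log2 fold change 3.06 ± 0.24 SE, adjusted p = 0.000215 in limma) and in NC than in NPC (log2 fold change 2.28 ± 0.24 SE, adjusted p = 0.00333 in limma). Without NPC replicate 1 the second step of Nnat had a limma adjusted p of 0.0512. Nap1l5, a retrogene of the nucleosome assembly protein family within Herc3, was at 0.961 and 1.42 TPM in mESC libraries, 4.19 and 4.44 TPM in NPC libraries and 83.4 and 22.99 TPM in NC libraries. The NC libraries were the highest and lay farther apart than those of the other stages. Nap1l5 was higher in NC than in NPC (log2 fold change 3.08 ± 0.55 SE, adjusted p = 0.0111 in limma) and not called in NPC against mESC (log2 fold change 1.29 ± 0.55 SE, adjusted p = 0.109 in limma). The second step of Nap1l5 was lost without any 1 mESC or NPC library (limma adjusted p = 0.0522 to 0.0924). Zrsr1, a retrogene of a splicing factor within Commd1, was at 8.46 and 7.84 TPM in mESC libraries, 10.1 and 7.07 TPM in NPC libraries and 16.6 and 14.2 TPM in NC libraries. It was called in NC against mESC only (log2 fold change 0.84 ± 0.24 SE, adjusted p = 0.0221 in limma), and not without mESC replicate 1, mESC replicate 2 or NC replicate 1 (limma adjusted p = 0.0724, 0.0988 and 0.0895). Zrsr1 shares 412 exon bases, 9.17% of its own, with Commd1 on the opposite strand, so reads there may count for either gene. Commd1, a copper-handling protein, was at 60.8 and 74.3 TPM in mESC libraries, 53.8 and 62.1 TPM in NPC libraries and 49.9 and 41.8 TPM in NC libraries and was lower in NC than in mESC (log2 fold change -0.55 ± 0.17 SE, adjusted p = 0.0323 in limma). That call was lost without mESC replicate 2, either NPC library or NC replicate 2 (up to a limma adjusted p of 0.133).

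The promoters of Nap1l5 and Plagl1 are shown as those of a gene that rose at the second step and of one that rose at the first. Each holds 1 match to TGCCGC on either strand, in capitals, in the 250 bases before the RefSeq start (GRCm38.p6, chr6:58907127-58907376, minus strand, and chr10:13090582-13090831, plus strand). The printed windows, like those of Meg3 and Mest above, were chosen for holding a match, so its presence was fixed by the choice.
Nap1l5: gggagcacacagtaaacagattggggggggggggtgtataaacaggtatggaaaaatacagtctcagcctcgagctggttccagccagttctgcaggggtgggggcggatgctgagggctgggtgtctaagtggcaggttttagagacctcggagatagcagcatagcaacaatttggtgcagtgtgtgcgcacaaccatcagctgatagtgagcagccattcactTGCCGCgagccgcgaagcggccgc
Plagl1: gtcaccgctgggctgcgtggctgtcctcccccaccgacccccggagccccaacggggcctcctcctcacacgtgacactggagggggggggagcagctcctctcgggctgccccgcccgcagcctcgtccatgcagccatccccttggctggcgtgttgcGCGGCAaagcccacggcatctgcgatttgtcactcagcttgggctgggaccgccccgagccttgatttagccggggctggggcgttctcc
RefSeq promoter windows of 300 bases, 250 of them before the start, were matched for 33 of the 41 members. TGCCGC was in windows of 12 of these 33, Commd1, Copg2, Grb10, Igf2, Meg3, Mest, Nap1l5, Nnat, Plagl1, Snrpn, Zdbf2 and Zim1. Of the 27025 genes with a window, 13.1% had it. By window it was in 13 of the 52 of the members and in 11.6% of all 32851. The match is a description of the letters and says nothing of binding in these cells.

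Gnas, which encodes the stimulatory G protein alpha subunit and further transcripts, was listed at 137 and 171 TPM in mESC libraries, 869.6 and 675 TPM in NPC libraries and 911 and 675 TPM in NC libraries. Both later stages lay above mESC and overlapped each other. Gnas was higher in NPC than in mESC (log2 fold change 2.31 ± 0.21 SE, adjusted p = 0.000432 in limma) and not called in NC against NPC (log2 fold change 0.03 ± 0.21 SE, adjusted p = 0.931 in limma). Peg13, a brain noncoding RNA within an intron of Trappc9, was at 0.789 and 0.997 TPM in mESC libraries, 16.5 and 20.7 TPM in NPC libraries and 90.2 and 74.5 TPM in NC libraries. No stages overlapped. Peg13 (ENSMUSG00000106847.1, chromosome 15, 72805600 to 72810324, minus strand) was higher in NPC than in mESC (log2 fold change 3.37 ± 0.22 SE, adjusted p = 0.000119 in limma) and in NC than in NPC (log2 fold change 2.09 ± 0.22 SE, adjusted p = 0.00338 in limma). Its host Trappc9, a vesicle tethering factor, was at 23.5 and 19.98 TPM in mESC libraries, 27.8 and 30.1 TPM in NPC libraries and 53.8 and 49.2 TPM in NC libraries. Trappc9 was called higher in NC than in NPC (log2 fold change 0.81 ± 0.16 SE, adjusted p = 0.0155 in limma) and not in NPC against mESC (log2 fold change 0.40 ± 0.16 SE, adjusted p = 0.0939 in limma). Without NPC replicate 1 the second step had a limma adjusted p of 0.0514 for Peg13 and 0.138 for Trappc9. The Trappc9 call was also lost without NPC replicate 2 (0.093) or NC replicate 1 (0.0572).

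The members that were lower outside mESC, beside Phlda2, Slc22a18 and Commd1, were a transporter and a regulator of translation. Slc38a4, an amino acid transporter of placenta and liver, was listed at 202 and 128 TPM in mESC libraries, 44.2 and 44.01 TPM in NPC libraries and 32.6 and 41.1 TPM in NC libraries. The mESC libraries lay above all others. It was lower in NPC than in mESC (log2 fold change -1.84 ± 0.24 SE, adjusted p = 0.00158 in limma). Impact, an inhibitor of the stress kinase GCN2, was at 146 and 163 TPM in mESC libraries, 106 and 92.3 TPM in NPC libraries and 47.4 and 81.4 TPM in NC libraries. Its mESC libraries were the highest and its NC libraries the lowest. It was lower in NC than in mESC (log2 fold change -1.30 ± 0.25 SE, adjusted p = 0.00487 in limma), and not without mESC replicate 2 (limma adjusted p = 0.0594). Zdbf2, a zinc finger gene, lay between 21.2 and 38.5 TPM and was not called.

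Grouped by the copy that the genes are known to use, calls were as follows. Of 23 tested genes of the paternal group, 14 were higher and 1 lower in NPC than in mESC, 10 higher and 2 lower in NC than in NPC, and 18 higher and 2 lower in NC than in mESC. Of 15 tested genes of the maternal group, the counts were 4 and 2, 6 and 0, and 9 and 3. As shares of each group, 60.9% of the paternal and 26.7% of the maternal genes were higher in NPC than in mESC, beside 26.0% of all tested genes. In NC against NPC the shares called higher were 43.5% and 40.0%, beside 15.2%, and in NC against mESC 78.3% and 60.0%, beside 37.8%. The shares called lower over all tested genes were 14.0%, 10.1% and 22.1%. Phlda2 and Slc22a18, whose falls were built into the filter, are both maternal genes lower in NPC than in mESC and 2 of the 3 lower in NC than in mESC. The difference between these groups was not tested. Summed TPM of the maternal group was 1422 and 1175 in mESC libraries, 1996 and 2119.8 in NPC libraries and 5419 and 5240.0 in NC libraries, and of the paternal group 1264 and 1247 in mESC libraries, 3545 and 3402 in NPC libraries and 6767 and 5631 in NC libraries. The 2 groups had similar sums in mESC, and the paternal sum was the larger in every NPC and NC library. In NC libraries Nnat alone held 3226 and 1949.7 TPM of the paternal sum, more than the gap between the groups there. The maternal sum in NC was led by Meg3, Rian and H19. Of the 7 long noncoding RNAs, 3 were higher in NPC than in mESC, 4 in NC than in NPC and all 7 in NC than in mESC, beside 26.0%, 15.2% and 37.8% of all tested genes called higher, with none lower in any comparison.

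**Figure D5:**
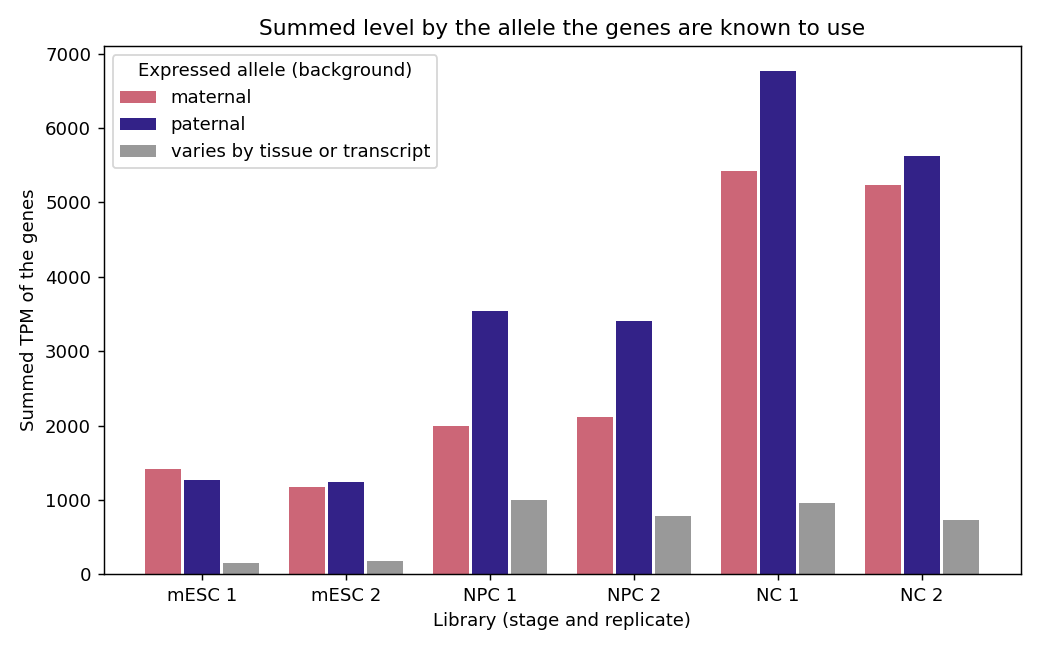
Bars give the summed TPM of the imprinted genes grouped as maternally expressed (16), paternally expressed (23) and variable (2) in each library, starting at 0. The paternal bars exceed the maternal bars in all NPC and NC libraries, in NC by less than the level of Nnat alone. All bars of the maternal and paternal groups are highest in NC.

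Overlapping genes limit further levels. Of the members, 10 share exon bases with a gene on the opposite strand in GENCODE vM21, which gives 25 of the 41 the same start and end as the deposited tables. Gm26906 lies opposite Meg3 over 1228 exon bases and was listed at 0 in all 6 libraries. Usp29 shares 14.3% of its exon bases with Zim3, and Gnas shares 13.1% with Gm20721 and 8.83% with Nespas.

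A further list of imprinted genes outside the 41 moved in both directions. Of 30 tested, 12 were higher and 6 lower in NPC than in mESC, 12 higher and 3 lower in NC than in NPC, and 16 higher and 6 lower in NC than in mESC, with median log2 fold changes of 0.42, 0.45 and 0.81. The shares called higher were 40.0%, 40.0% and 53.3%, beside 26.0%, 15.2% and 37.8% of all tested genes. The genes called lower, 6, 3 and 6 of 30, stand beside 14.0%, 10.1% and 22.1% of all tested genes, and the shares in NC against NPC and NC against mESC are near those of all genes. Zim3 and Gpr1, lower in NPC and in NC than in mESC, passed the filter through mESC alone. Tfpi2, higher in NPC than in mESC and lower in NC than in NPC, passed through NPC alone. Dcn, higher in NC than in both other stages, passed through NC alone. The calls of these genes were built into the filter. Cpa4, higher in NC than in both other stages, was at 0 in both mESC libraries and at 0.202 and 1.05 TPM in NPC libraries. It too passed only with an NC library, so the filter favoured its calls. Peg12, a retrogene of the Snrpn cluster, was listed at 0.745 and 2.92 TPM in mESC libraries, 37.6 and 47.2 TPM in NPC libraries and 23.7 and 20.8 TPM in NC libraries, with log2 fold change 4.05 ± 0.38 SE, adjusted p = 0.000475 in limma in NPC against mESC. Begain, beside Dlk1, was at 4.65 and 1.98 TPM in mESC libraries, 37.5 and 47.6 TPM in NPC libraries and 187 and 161 TPM in NC libraries (log2 fold change 3.398 ± 0.31 SE, adjusted p = 0.000422 in limma in NPC against mESC). Cobl, an actin nucleator, was the lowest in NPC against mESC, at 82.02 and 92.4 TPM in mESC libraries, 1.15 and 0.847 TPM in NPC libraries and 2.06 and 1.01 TPM in NC libraries (log2 fold change -5.47 ± 0.28 SE, adjusted p = 5.58e-05 in limma). Kcnk9, a potassium channel of the Peg13 cluster, was at 0 in both mESC libraries, at 1.95 and 3.401 TPM in NPC and at 55.1 and 26.4 TPM in NC (log2 fold change 3.44 ± 0.40 SE, adjusted p = 0.0038 in limma in NC against NPC; limma adjusted p = 0.0534 without NPC replicate 1). Dcn, decorin, was at 0 and 0.199 TPM in mESC libraries, 0 and 0.504 TPM in NPC libraries and 20.1 and 22.4 TPM in NC libraries and is also one of the mesenchyme markers given above.

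Among 27 genes known to set, keep or remove methylation at imprinted regions, 8 were higher and 11 lower in NPC than in mESC, 1 higher and 6 lower in NC than in NPC, and 6 higher and 13 lower in NC than in mESC. The shares called higher were 29.6%, 3.7% and 22.2%, beside 26.0%, 15.2% and 37.8% of all tested genes, and those called lower 40.7%, 22.2% and 48.1%, beside 14.0%, 10.1% and 22.1%. Dppa3 and Dnmt3l, counted among the 11 and the 13 lower than in mESC, passed the filter through mESC alone. Their falls were built into the filter. In either direction the 7 genes called in NC against NPC are a share near the 25.3% of all tested genes. The median log2 fold changes were -0.11, -0.19 and -0.40. Zfp57, the zinc finger protein that binds methylated imprinted regions, was the 1 gene higher at the second step. It was listed at 444 and 482 TPM in mESC libraries, 60.1 and 84.7 TPM in NPC libraries and 268 and 308 TPM in NC libraries. The NPC libraries were the lowest and the NC libraries lay between NPC and mESC. Zfp57 was higher in NC than in NPC (log2 fold change 1.99 ± 0.19 SE, adjusted p = 0.00314 in limma) and lower in NC than in mESC (log2 fold change -0.69 ± 0.19 SE, adjusted p = 0.0193 in limma). The second of these calls was lost without any 1 mESC or NC library (limma adjusted p = 0.0502 to 0.114). Zfp445, which also binds imprinted regions, was at 40.1 and 34.6 TPM in mESC libraries, 83.1 and 77.9 TPM in NPC libraries and 107 and 105 TPM in NC libraries (log2 fold change 1.48 ± 0.14 SE, adjusted p = 0.000243 in limma in NC against mESC). The largest falls at the second step were in Hells (log2 fold change -1.62 ± 0.17 SE, adjusted p = 0.00333 in limma), Uhrf1 (log2 fold change -1.49 ± 0.14 SE, adjusted p = 0.00314 in limma) and Dnmt3b (log2 fold change -1.31 ± 0.18 SE, adjusted p = 0.00569 in limma), a chromatin remodeller, a cofactor of maintenance methylation and a de novo methyltransferase. None of these 3 falls was called without NPC replicate 1 (limma adjusted p = 0.0518, 0.05005 and 0.071), and Zfp57 was the 1 gene of the list still called at this step. Dppa3, which protects imprints in the zygote, was at 30.7 and 28.02 TPM in mESC and listed at 0 in all NPC and NC libraries.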

How the data were processed

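RNA was sequenced from 6 libraries, 2 each for mESC, NPC and NC, grouped by their titles, since the cell type label of every sample names embryonic stem cells. Per the submitters' processing notes, StringTie 2.1.5, STAR 2.7.9a, cutadapt 3.4, FastQC, DESeq2 and R 4.0.3 were used, with the build mm10, with no order or settings, and neither annotation release nor strand setting is given. Per the file headers, each deposited table is a StringTie gene abundance table. The deposited coverage is the mean read depth over a gene and was used only to derive the aligned bases from its ratio to FPKM. The deposited FPKM values were scaled by the authors' StringTie run to length and aligned bases and served as an alternative. The deposited TPM values, rescaled by the authors' run to 1 common sum per library, gave every level. The tables hold no read counts, so no counting interval is given and precision rests on 2 libraries a stage.

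Repeated lines of a gene ID (2 to 9 per table) were summed. Genes with at least 1 TPM in at least 2 of 6 libraries were fitted with limma 3.58.1 in R 4.3.3 (lmFit, eBayes with trend) on log2(TPM + 1), 1 coefficient per stage, which leaves 3 residual degrees of freedom. A pseudocount of 1 understates the change of low genes. Contrasts were two-sided, with Benjamini-Hochberg adjustment over 20232 genes and a threshold of 0.05. The steps were tested on simulated data. P-values measure the spread between libraries that the labels call biological replicates. The labels do not say whether replicate numbers pair libraries across stages. Replicate deviations were little correlated between stages (0.045, -0.082 and -0.070), which with 2 libraries a stage cannot tell whether they were paired.

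Members and lists, and the rule for named genes, were chosen with earlier results of these data known. By that rule members called with an absolute log2 fold change of at least 1 get full values, and of the added lists the 3 highest and 3 lowest called changes per contrast may be named. Fold changes are not given against a stage at 0 in both libraries. Alternatives were other pseudocounts (0.1 and 5), other filters (a minimum of 5 TPM, or none beyond TPM above 0), median-of-ratios and quantile scaling, FPKM, fits of the compared stages alone, eBayes without trend, a replicate block and leaving out each library. Exon overlaps come from GENCODE vM21, which holds all 41 members, 25 of them with the start and end of the deposited tables. Mature microRNA and promoter sequences are RefSeq's on GRCm38.p6, searched for motifs on both strands.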

Additional observations from a re-analysis of the deposited data

How the results depend on the processing

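Of 76 called values of single imprinted genes, 44 were called in all 16 other settings, 10 lost the call only when a library was left out, 19 lost it in at least 1 setting that leaves out no library, and 0 changed sign. The other 3, of Asb4 and Slc22a18, were not tested in some settings, and of these the NPC against mESC call of Slc22a18 was also lost when a library was left out. The choices that moved counts by over 1.5 times were these. With no filter beyond TPM above 0, NC against NPC called 3166 of all genes (5123 with the filter), with 7 imprinted genes higher and 1 lower. With FPKM in place of TPM, 5 imprinted genes were lower in NC than in NPC (3 with TPM). Leaving out 1 library at a time gave, over all tested genes, 4032 to 8484 calls in NPC against mESC, 309 to 4156 in NC against NPC and 9499 to 11187 in NC against mESC. The imprinted genes called higher were then 18 to 22, 1 to 13 and 25 to 28, and those called lower 2 to 4, 0 to 3 and 3 to 5. The further imprinted genes called were 9 to 17, 1 to 13 and 19 to 22, and the imprint maintenance genes 12 to 19, 1 to 8 and 17 to 22. The fewest calls in NC against NPC came without NPC replicate 1; the cause was not tested. Where a stage was left with 1 library, that library is assumed to vary like the others.

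Whether the replicate numbers pair libraries across stages is not stated. With a replicate block, 7368, 4247 and 11575 genes were called, in the same order of comparisons, with 20, 16 and 28 imprinted genes higher and 3, 2 and 4 lower. With quantile scaling, 19, 14 and 24 imprinted genes were higher and 3, 3 and 6 lower. The tables give no counts, so the precision of the lowest levels (Ascl2, Dio3, Slc22a18) is unknown. Levels of Mest, Copg2, Usp29, Gnas, Ube3a, Snrpn, Zrsr1 and Commd1 include exons shared with other genes.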

Other observations

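Ratios of TPM between imprinted genes and their cluster or host partners, formed within each library, do not depend on the scaling of the library, and are given without a test. Meg3 over Dlk1 was 229 and 103.5 in mESC libraries, 13.5 and 11.5 in NPC libraries and 16.6 and 9.97 in NC libraries, with mESC above all others. Meg3 over Rian, from neighbouring noncoding RNAs, was 0.712 and 0.597 in mESC libraries, 0.974 and 0.895 in NPC libraries and 1.54 and 1.45 in NC libraries, with no overlap between stages. H19 over Igf2 was 3.38 and 2.18 in mESC libraries, 1.78 and 1.64 in NPC libraries and 2.05 and 0.731 in NC libraries, where the NC libraries lay on both sides of the NPC libraries. Airn over Igf2r was 0.0256 and 0.0336 in mESC libraries, 0.583 and 0.382 in NPC libraries and 0.251 and 0.395 in NC libraries.

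Genes nested in a host differed from the host by stage. Peg13 over its host Trappc9 was 0.0336 and 0.0499 in mESC libraries, 0.594 and 0.688 in NPC libraries and 1.68 and 1.51 in NC libraries. Nap1l5 over Herc3 was 0.0565 and 0.114 in mESC libraries, 0.527 and 0.498 in NPC libraries and 3.99 and 1.62 in NC libraries. Nnat over Blcap was 1.34 and 2.26 in mESC libraries, 7.998 and 8.09 in NPC libraries and 24.8 and 15.8 in NC libraries. In these 3 pairs the stages did not overlap. Zrsr1 over Commd1 was 0.139 and 0.106 in mESC libraries, 0.187 and 0.114 in NPC libraries and 0.333 and 0.340 in NC libraries, with mESC and NPC overlapping, and the pair shares 412 exon bases on opposite strands. Peg3 over Usp29, which start beside each other, was 149 and 43.6 in mESC libraries, 67.2 and 43.1 in NPC libraries and 8.48 and 14.1 in NC libraries, with NC below all others.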
